A study of Mus musculus with 8 samples.

Results

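The synaptotagmin and SNARE genes, which carry out the calcium-triggered fusion of synaptic vesicles, were described in the medial prefrontal cortex (mPFC) of mice exposed to maternal separation (MS) and of control mice. They were taken from the array by name and cover the synaptotagmins (Syt), syntaxins (Stx), syntaxin-binding proteins (Stxbp), vesicle-associated membrane proteins (Vamp), the SNAP-25 family with Snap91, and the complexins (Cplx). The array held 53 such genes on 82 probes, out of 34797 gene names on 55681 probes. Of them, 49 genes on 71 probes were bright enough to be tested, as were 23453 of all gene names.

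All 8 animals were males of the inbred strain C3H/HeN, and each was read on 1 single-colour array. The 4 MS mice had been separated from the dam daily from postnatal day 2 to postnatal day 14, while she was exposed to unpredictable stress, and the 4 control mice had not. Both groups were weaned at postnatal day 21, and the tissue was taken once both had worked for palatable food in an operant task. Mice are named by group and label number, as in MS 7.6 or control 8.4, and nothing in the sources used here says whether animals sharing the number before the point share a litter. The comparison asks whether the adult mPFC differs between separated and control mice. All were fasted before the tissue was taken, and the authors report more lever presses for palatable food in MS males of this strain. A direct effect of separation therefore cannot be told apart here from a different exposure to that food or response to fasting.

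Release of transmitter depends on a helical bundle of SNARE proteins, in which Vamp on the vesicle pairs with syntaxin and Snap25 on the plasma membrane. Syntaxin-binding proteins hold syntaxins and guide the assembly, complexins bind the assembled bundle, and a synaptotagmin senses the calcium that enters with the action potential. Other syntaxins and Vamps serve fusion in endosomes, Golgi and endoplasmic reticulum.

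A level is the log2 signal of a probe minus the log2 of the 75th percentile of its array, and a gene is read from the brightest of its probes. Each probe hybridises with its own efficiency, so levels of different genes are not a ranking of their transcripts. Cplx2, Syt1, Snap25, Vamp2 and Syt5 were among the brightest members by signal, and each was above its array's 75th percentile in all animals. Across the 8 arrays, 61.5% to 68.9% of probes were well above background and no spot was saturated. Control 8.4 stood apart, with a median correlation with the other arrays of 0.9871 against at least 0.993 for every other array. The number of arrays limits the precision, and labels do not say more than that each array is a separate mouse. The paper states that MS or control was assigned by litter. MS 7.1, 7.2 and 7.6 share the number before the point, as do control 8.2, 8.4 and 8.5. The SDs and intervals below treat the mice of a group as independent, which litter mates would not be.

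**Figure D1:**
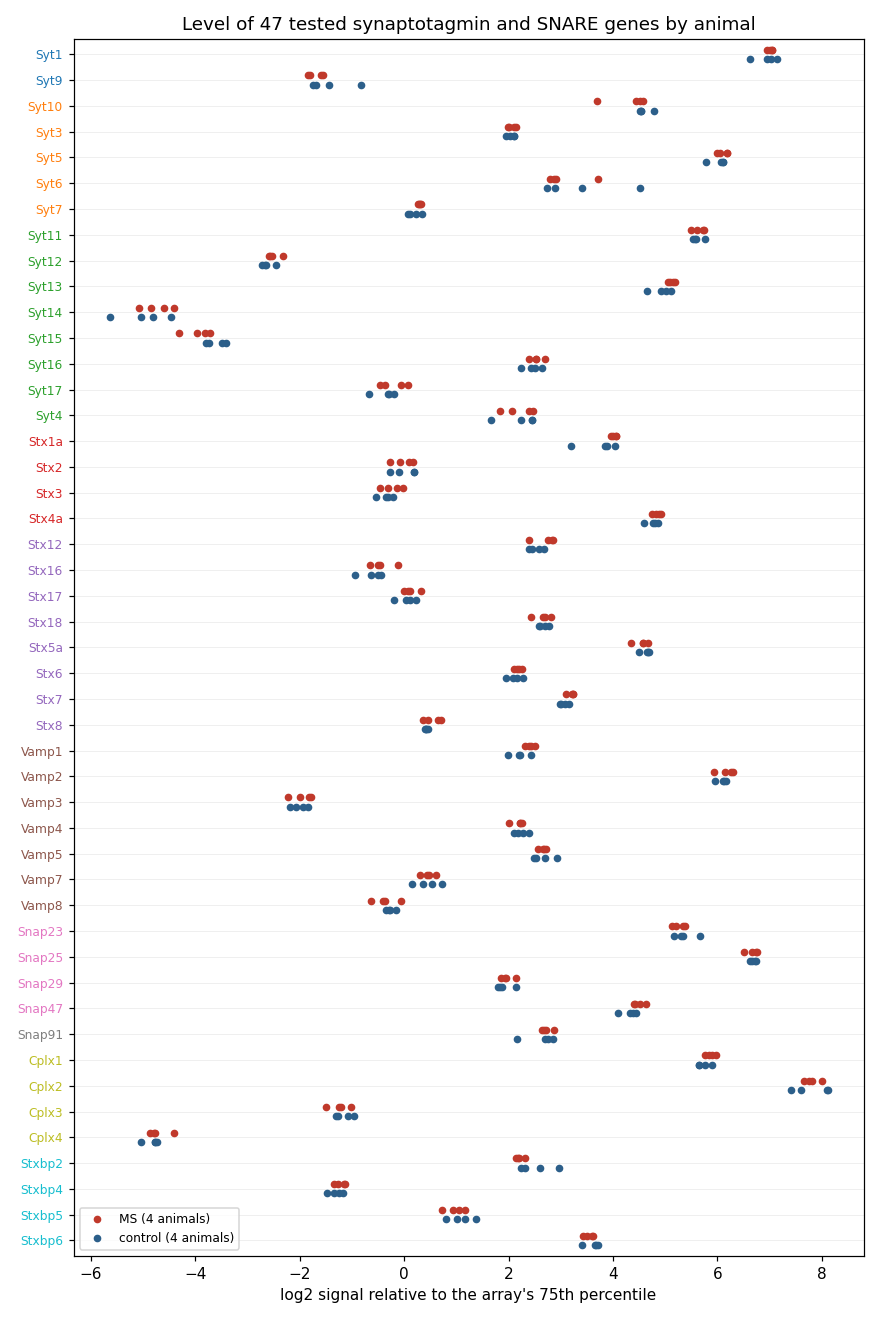
Level of 47 of the 49 tested genes in each animal, as log2 signal relative to the 75th percentile of the array on the x axis, with 4 red points for MS above 4 blue points for controls. The groups overlap for all 47 genes shown, and the widest rows are Syt6 and Syt14.

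The probes themselves are shown first for 3 genes, because their sequence bears on what their signal measures. In 6 of the 82 member probes (7.32%) at least 20 bases in a row used only 2 kinds of base, against 665 of 55681 probes (1.19%) on the array. In 4 of those 6 the run filled all 60 bases, and all 4 belonged to Cplx2, which had 5 probes. Only 24 probes on the array (0.0431%) were of that kind. For 3 of the Cplx2 probes, the Snap25 probe and 1 of Snap23, the first 30 of 60 bases are printed 5′ to 3′, with the run of 2 kinds of base in capitals.
Cplx2 probe 2, chr13:108816800-108816829, plus strand: AGGAGGAGGAGGAGGAGGAGGAGGAGGAGG
Cplx2 probe 4, chr13:54485200-54485229, plus strand: tccccactttgtatgatgcaaatgctaaga
Cplx2 probe 5, chromosome 5, plus strand: AAGGAGGAGGAGGAGGAGGAGAAGGAAGAG
Snap25, chr2:136607709-136607738, plus strand: CACACACACACACACACACAAAgtggattt
Snap23 probe 1, chr2:120425750-120425779, plus strand: ttgacggtagcctttaaaagatACACACAC
Coordinates are those of the array files on build mm9. Probes are numbered by signal. Probe 2 of Cplx2 is placed far from probe 4 on the same chromosome and probe 5 on another chromosome, although all carry the name Cplx2. Probes 1 and 3, not printed, are placed near probe 4, at chr13:54481348-54481407 and chr13:54481316-54481375. These 2 overlap, so they are not separate readings of the gene. Of the 5, only probe 4, with a longest run of 13 bases, is without such a repeat. Which transcripts the repeat probes also bind was not tested, and Snap25, with 1 probe, has no other reading on this array. Exon, intron and UTR positions were not analysed here, since no annotation of build mm9 was used.

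No member gene differed between MS and control mPFC after adjustment. At an adjusted p under 0.05 in limma, 0 of 49 members and 0 of 23453 genes (0%) were called, and the smallest adjusted p of a member was 0.9997. At an unadjusted p under 0.05, 1 member, Syt15, was called (2.04%), close to the 1.93% of all tested genes. The 4 MS values lay wholly above or below the 4 control values for 0 of the 49 members, against 1.31% of all genes. The log2 fold change (MS minus control) was above 0 for 31 of 49 members (63.3%) and for 54.6% of all genes, with medians of 0.06 and 0.01. All members tested but Syt14 were well above background in both groups. Without control 8.4 these medians were 0.02 and 0.00 (-0.0022), the log2 fold change of 5 members turned its sign, and that of a further 28 moved by more than 1.5 times. For 42 of 49 members the 95% confidence interval stayed inside a 1.5-fold change either way, and for 48, all but Syt6, inside a 2-fold change. The other 6 outside 1.5-fold were Syt9, Syt10, Syt14, Syt15, Stx1a and Stxbp2.

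**Figure D2:**
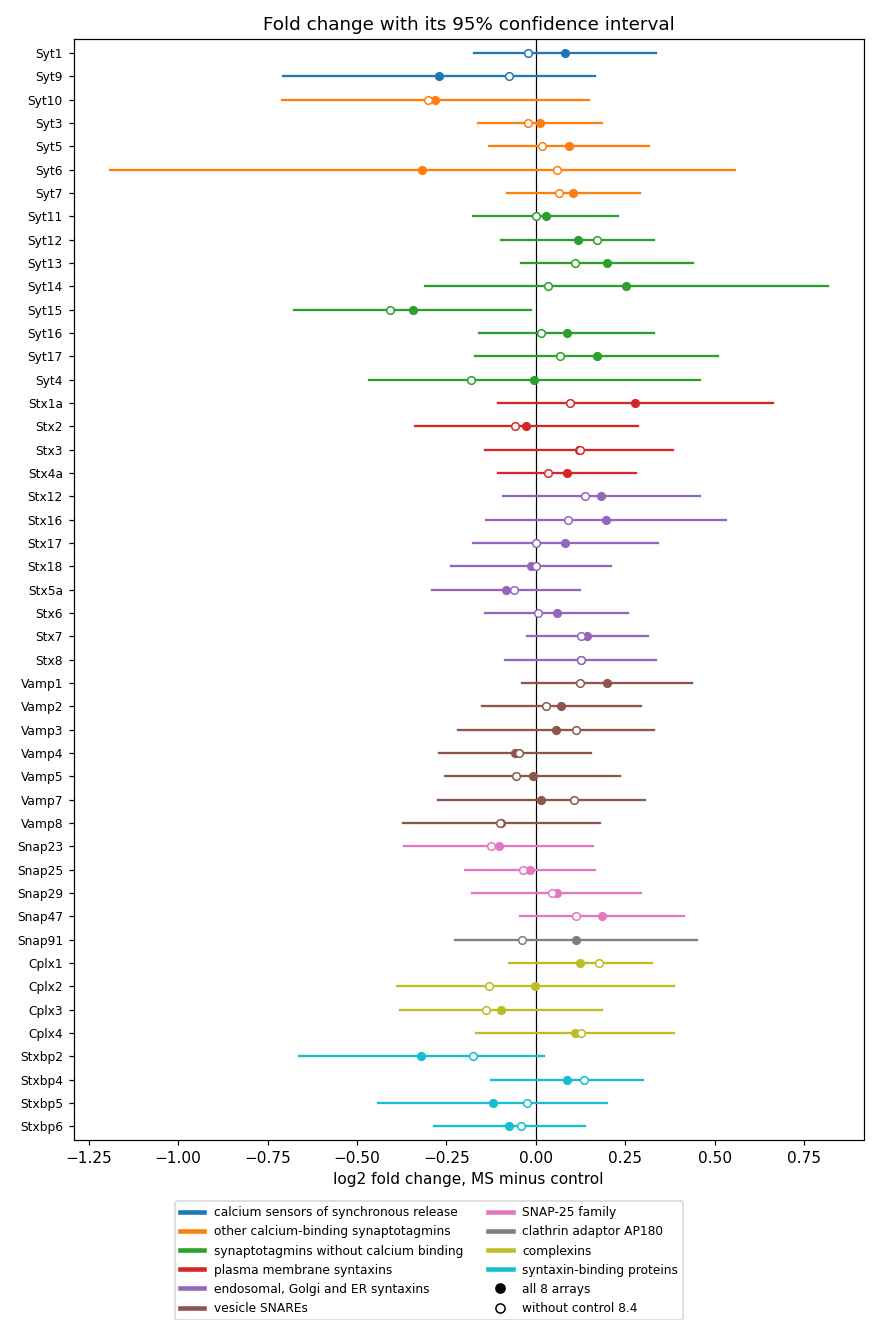
Log2 fold change (MS minus control, x axis) of 47 of the 49 tested genes with its 95% confidence interval in limma, coloured by role, with filled points for all 8 arrays and open points without control 8.4. Only the interval of Syt15 leaves out 0, before any adjustment, and that of Syt6 is the widest.

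Among the calcium sensors of synchronous release, Syt1, the main sensor of cortical neurons, had levels of 7.04, 7.05, 7.02 and 6.95 in MS 5.3, 7.1, 7.2 and 7.6, against 7.03, 6.95, 6.63 and 7.14 in control 6.2, 8.2, 8.4 and 8.5. The 4 MS values fell within the span of the control values, which control 8.4 set at the low end. The mean was 7.02 ± 0.043 in MS and 6.94 ± 0.22 in controls (SD, n = 4 each), with a log2 fold change of 0.08 (SE 0.11) that became -0.02 without control 8.4. Syt9, another fast sensor, known from limbic and striatal neurons, had levels of -1.56, -1.60, -1.80 and -1.84 in MS mice, against -1.75, -1.68, -0.84 and -1.45 in the controls, in the same animal order. Control 8.4 was the highest of all, and the log2 fold change of -0.27 (SE 0.19) was -0.07 without it.

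Syt2, the fast sensor of brainstem and of some inhibitory neurons, was at the limit of detection and was not tested. It was well above background on 3 of 4 MS arrays and on 0 of 4 control arrays. Its measured level averaged -5.40 ± 0.30 in MS and -6.199 ± 0.46 in controls (SD, n = 4 each). The groups overlapped, with MS 7.2 (-5.75) below control 8.4 (-5.66). The lowest level called well above background also differed between arrays, from -6.22 to -5.31. No fold is given, since 1 MS array was also not above background. The other members without a test were Syt8, with 1 array above background in each group, Stx11, with 0 in MS and 1 in controls, and Stx19, with 0 in both.

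Of the 5 other calcium-binding synaptotagmins, 3 had a log2 fold change above 0. They were Syt7, the slow sensor of asynchronous release and facilitation, at 0.11, Syt5 at 0.09 and Syt3 at 0.01. The other tested probe gave 0.34 (SE 0.17) for Syt7, or 0.19 without control 8.4, and 0.15 (SE 0.12) for Syt3. The 2 lowest genes were Syt6 at -0.32 and Syt10 at -0.28. Syt6, known for its part in sperm acrosome exocytosis, had the widest spread of all members (SD 0.62 over the 8 arrays). Its levels were 2.88, 2.90, 2.80 and 3.72 in MS 5.3, 7.1, 7.2 and 7.6, against 2.73, 2.90, 4.52 and 3.41 in control 6.2, 8.2, 8.4 and 8.5. Control 8.4, MS 7.6 and control 8.5 were thus high, in this order, and the other 5 animals lay together in both groups. Its probes read 2 separate stretches of the gene, shown because both placed these 3 animals highest.
Syt6 probe 1, chr3:103439038-103439067, plus strand: tgtgtcttcccacccctgtcacagcctgga
Syt6 probe 2, chr3:103424769-103424798, plus strand: ctcaccctcacagtgatcaagtgtcgaaat
On probe 2 the levels were -0.90 in MS 7.6, -0.26 in control 8.4 and -0.75 in control 8.5, and from -2.32 to -1.58 in the other 5. The 2 log2 fold changes were -0.32 (SE 0.38) on probe 1 and -0.43 (SE 0.46) on probe 2. Without control 8.4 the change was 0.06 on probe 1 and -0.093 on probe 2, so only probe 1 turned its sign. Without all 3 animals it was 0.04 on probe 1.

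The same 3 animals were highest for marker genes of the olfactory bulb with its neighbouring anterior olfactory area, which lie next to the mPFC. A score was taken as the mean deviation of a list's genes from their mean over the 8 arrays. With 11 of 12 listed genes tested, Tbx21, Sp8, Th and Doc2g among them, it ran from -0.98 to 1.20 in MS mice and from -0.89 to 2.32 in controls. It was 1.20 in MS 7.6, 2.32 in control 8.4 and 0.77 in control 8.5, and at most -0.63 in the other 5. The mitral cell factor Eomes, the listed gene without a test, was above background in 2 animals of each group. The score of striatal projection neurons (11 of 13 listed genes tested) was 1.14 in control 8.4 and from -0.27 to -0.05 in the other 7. The astrocyte score (8 of 8) was 0.34 in control 8.4 and at most 0.037 in the others. The oligodendrocyte score (10 of 10) was 0.32 in control 8.4 and at most 0.11 in the others. Agt moved most of the astrocyte genes, with a log2 fold change of -0.62, and -0.17 without control 8.4. Slc1a2, S100b, Aldh1l1, Mbp and Ermn were instead lower in control 8.4 than the mean of the other controls. So were Ptn of the olfactory list and Pdyn of the striatal list. All 10 cortical glutamatergic markers, such as Slc17a7 and Tbr1, were well above background on every array. Their score ran from -0.06 to 0.19 in MS mice and from -0.27 to 0.13 in controls, with the lowest value in control 8.4. Tbr1, Nr4a2 and Bcl11b went against the score, being higher in control 8.4 than the mean of the other controls. Without that animal their log2 fold changes rose, from 0.14 to 0.18, from -0.37 to -0.11 and from -0.14 to 0.0010. Those of the rest fell, as for Slc17a7 (0.20 to 0.12). The part of these cells in the member values was not tested, and in bulk tissue fewer cells of a type and less RNA per cell cannot be told apart.

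**Figure D3:**
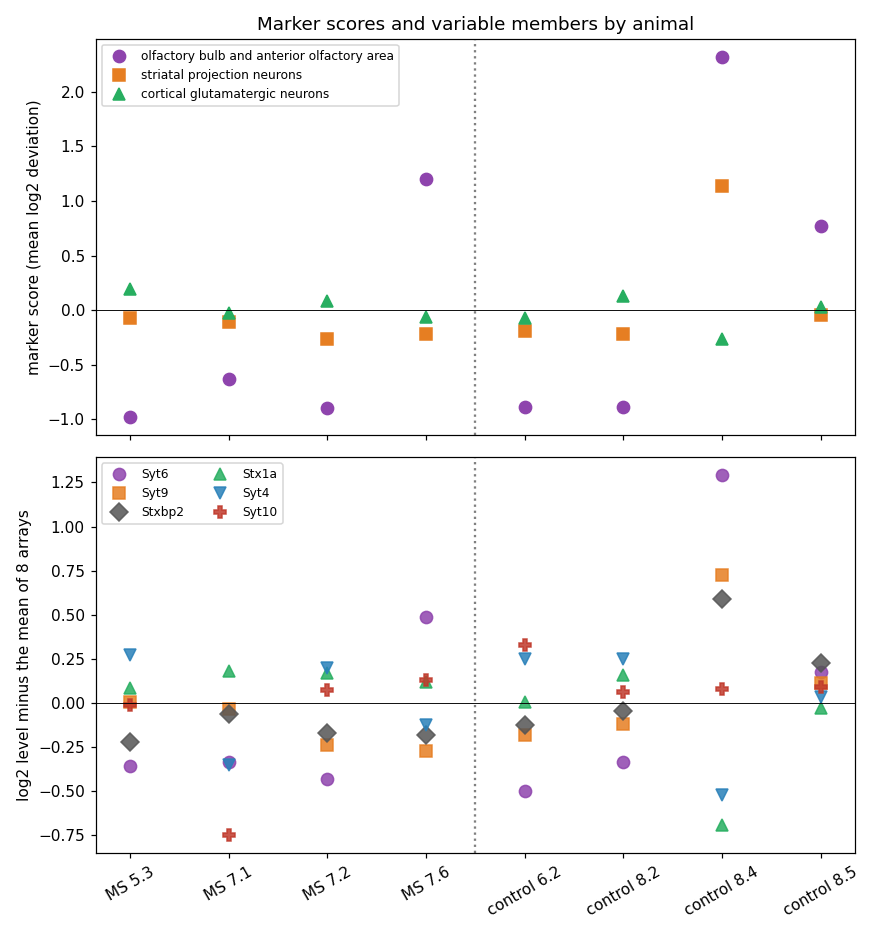
Upper panel, score of 3 marker lists by animal (mean log2 deviation from the 8-array mean), and lower panel, log2 level of 6 members minus their own 8-array mean, MS mice left of the dotted line and controls right of it. Syt6 and the olfactory score are high in the same 3 animals, while Syt9 and Stxbp2 are highest and Stx1a and Syt4 lowest in control 8.4.

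Syt10, described in mice as the sensor for growth factor release from olfactory bulb neurons, did not stand out in these 3 animals. Its levels were 4.44, 3.70, 4.52 and 4.58 in MS mice, against 4.78, 4.51, 4.53 and 4.54 in controls. MS 7.1 was the lowest by far and control 6.2 the highest. The means were 4.31 ± 0.41 in MS and 4.59 ± 0.13 in controls (SD, n = 4 each), with a log2 fold change of -0.28 (SE 0.19). Leaving out 1 animal at a time moved it between -0.37 and -0.08, and -0.08 was the value without MS 7.1.

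Of the synaptotagmins that do not bind calcium, 7 were detected on every array, and 5 of them had a log2 fold change above 0. Syt13 at 0.20 was the highest of these, and Syt15 at -0.34 and Syt4 at 0.00 (-0.0043) the lowest. Syt15, a member with little known function, had the smallest unadjusted p of the 49 genes. Its levels were -3.82, -3.72, -3.97 and -4.31 in MS 5.3, 7.1, 7.2 and 7.6, against -3.73, -3.49, -3.80 and -3.42 in control 6.2, 8.2, 8.4 and 8.5. The groups overlapped, with MS 7.1 above 2 of the controls. The means were -3.96 ± 0.26 in MS and -3.61 ± 0.18 in controls (SD, n = 4 each), a ratio of 0.788 with a 95% confidence interval of the log2 fold change from -0.67 to -0.013. Its adjusted p was 0.9997 in limma. The probe (chr14:35043301-35043360, mm9) is far below the 75th percentile of every array, and the second Syt15 probe was not above background on any array. In the log2 table normalised by the authors the change was -0.15.

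Syt13 had levels of 5.09, 5.19, 5.15 and 5.05 in MS mice, against 4.91, 5.10, 4.65 and 5.01 in controls, and its log2 fold change of 0.20 (SE 0.11) was 0.11 without control 8.4. The 4 MS values were close together, and 3 of the 4 controls lay below all of them. Syt14 was near background, above it on 4 of 4 MS arrays and 3 of 4 control arrays, so that it entered the test through the MS group alone. Its levels were -5.08, -4.41, -4.60 and -4.85 in MS mice, against -4.80, -5.04, -5.65 and -4.46 in controls, and control 8.4 was the lowest. Its log2 fold change of 0.25 was 0.035 without control 8.4 and 0.43 without control 8.5. Syt4, which sits on vesicles carrying peptides and neurotrophins, had levels of 2.47, 1.84, 2.39 and 2.07 in MS mice, against 2.44, 2.44, 1.67 and 2.23 in controls. Control 8.4 was the lowest and MS 7.1 the next for Syt4, and the group means of 2.19 ± 0.29 in MS and 2.20 ± 0.37 in controls (SD, n = 4 each) differed by less than the spread.

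The plasma membrane syntaxins had a median log2 fold change of 0.12 over the 5 tested, with Stx1a (0.28) highest and Stx2 (-0.03) and Stx4a (0.09, with -0.11 on its other tested probe) lowest. Stx1a, the neuronal syntaxin of the release complex, had levels of 3.97, 4.06, 4.05 and 4.00 in MS mice, against 3.89, 4.04, 3.19 and 3.85 in control 6.2, 8.2, 8.4 and 8.5. All MS values lay near 4 and control 8.4 alone lay far below. The means were 4.02 ± 0.044 in MS and 3.74 ± 0.38 in controls (SD, n = 4 each). The log2 fold change of 0.28 (SE 0.17) was 0.09 without control 8.4, and the SD over the arrays was 0.29 with that array and 0.082 without it.

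The syntaxins of endosomes, Golgi and endoplasmic reticulum had a median of 0.10 over 8 genes, 6 of them above 0, with Stx16 (0.20) and Stx12 (0.18) highest and Stx5a (-0.08) and Stx18 (-0.01) lowest. Stx7, a syntaxin of late endosomes, had the third smallest unadjusted p of the members. Its levels were 3.21, 3.24, 3.23 and 3.11 in MS mice, against 3.08, 3.15, 3.0004 and 2.98 in controls. Among them only MS 7.6 lay below a control value. The log2 fold change was 0.14 (SE 0.075), 0.13 without control 8.4 and between 0.11 and 0.18 over all alternatives tried, with an adjusted p of 0.9997 in limma.

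The vesicle SNAREs had a median of 0.02 over 7 genes, with Vamp1 (0.20) and Vamp2 (0.07) highest and Vamp8 (-0.10) and Vamp4 (-0.06, with 0.06 on its other tested probe) lowest. Vamp2, the main vesicle SNARE of forebrain synapses, had levels of 6.30, 5.94, 6.15 and 6.25 in MS mice, against 6.11, 6.16, 5.96 and 6.13 in controls. The controls lay inside the MS span. Vamp1, the form of brainstem, spinal cord and fast-spiking interneurons, had levels of 2.42, 2.32, 2.38 and 2.50 in MS mice, against 2.22, 2.44, 1.98 and 2.19 in controls. In 3 of 4 controls Vamp1 was below all MS mice, and control 8.2 lay among them. Its log2 fold change was 0.20 (SE 0.10), 0.12 without control 8.4 and 0.05 without MS 7.6, control 8.4 and control 8.5 together.

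In the SNAP-25 family the log2 fold changes were 0.19 for Snap47, 0.06 for Snap29, -0.02 for Snap25 and -0.10 for Snap23. Snap25, the neuronal plasma membrane SNARE, had levels of 6.76, 6.51, 6.67 and 6.73 in MS mice, against 6.72, 6.67, 6.63 and 6.73 in controls. It varied little (SD 0.078 over the 8 arrays), MS 7.1 being the lowest, and its 95% confidence interval ran from -0.20 to 0.17. Snap47 had levels of 4.41, 4.64, 4.51 and 4.42 in MS mice, against 4.33, 4.45, 4.09 and 4.37 in controls. Of the controls, 3 lay below all MS mice. The log2 fold change of 0.19 was 0.11 without control 8.4, and the second tested probe gave 0.29 with all arrays. For Snap23, the widely expressed form, the 3 tested probes ran from -0.10 to 0.11, with the lowest value on the brightest, which holds the repeat shown above. Snap91, the clathrin adaptor AP180, shares the name but is no SNARE, and its log2 fold change was 0.11, or -0.04 with control 8.4 left out.

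**Figure D4:**
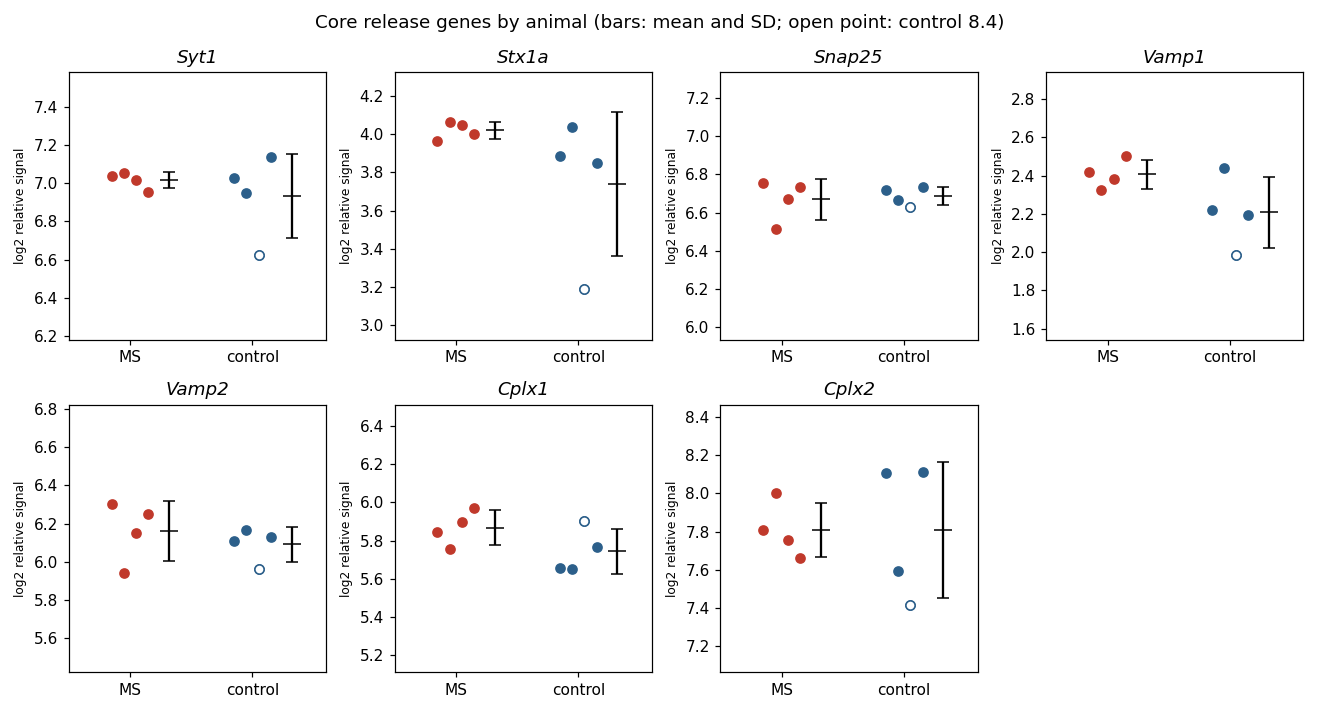
Log2 relative signal of 7 core release genes by animal, MS left and control right in each panel, with the mean and SD of 4 animals beside the points and control 8.4 as an open point. Every panel spans the same log2 range, and control 8.4 is the lowest animal for Syt1, Stx1a, Vamp1 and Cplx2.

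Of the complexins, Cplx1 (0.12) and Cplx4 (0.11) had the highest log2 fold changes and Cplx3 (-0.10) and Cplx2 (0.00) the lowest. Cplx1 had levels of 5.84, 5.76, 5.90 and 5.97 in MS mice, against 5.66, 5.65, 5.90 and 5.77 in controls. Control 8.4 was here the highest control, and the log2 fold change of 0.12 (SE 0.088) was 0.18 without it and 0.039 in the log2 table of the authors. Cplx2, the complexin of most excitatory forebrain neurons, depended on the probe. On probe 1, the brightest and a repeat, its levels were 7.81, 8.0003, 7.76 and 7.66 in MS mice, against 8.11, 7.597, 7.42 and 8.11 in controls. The controls spread to both sides of all MS mice, with a log2 fold change of -0.0013 (SE 0.17). On probe 4, which has no such repeat, the levels were 7.21, 6.97, 7.15 and 7.13 in MS mice, against 7.02, 7.01, 6.91 and 7.03 in controls. Here 3 of 4 MS mice lay above all controls, with SDs of 0.10 in MS and 0.058 in controls (n = 4 each), and the log2 fold change was 0.12 (SE 0.079). The other repeat probes gave 0.15 (SE 0.14), 0.11 (SE 0.17) and 0.19 (SE 0.17) on probes 2, 3 and 5. None of the 5 probes passed the adjusted threshold in limma, and the sign on probe 1 was that of no other.

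**Figure D5:**
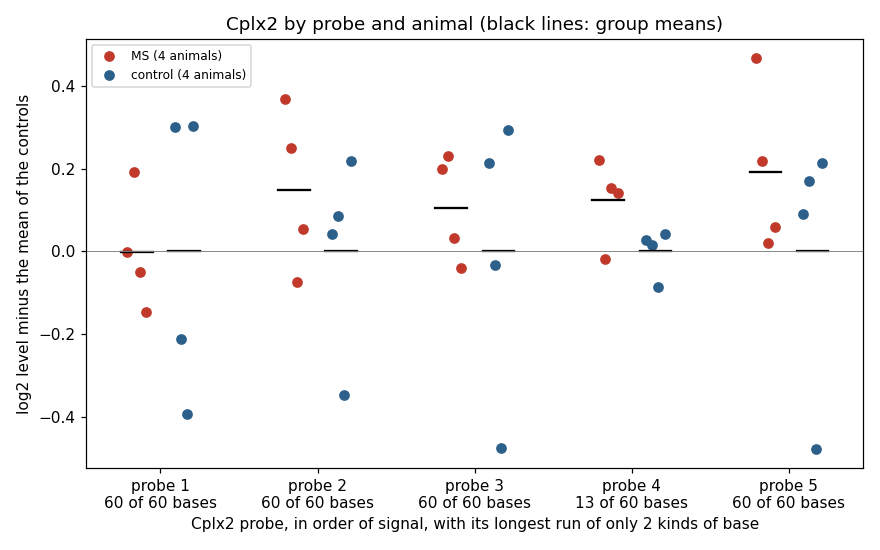
Log2 level of the 5 Cplx2 probes in each animal minus the control mean of that probe, in order of signal, with 4 MS mice left of 4 controls and black lines for the group means. The control SD is 0.058 on probe 4, whose longest run of only 2 kinds of base is 13 of 60, and from 0.24 to 0.36 on the other 4 probes, where the run is 60.

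Among the syntaxin-binding proteins, Stxbp4 had the highest log2 fold change at 0.09, with -0.15 on its other tested probe, and Stxbp2 (-0.32) and Stxbp5 (-0.12, or -0.03 without control 8.4) the lowest. Stxbp2 (Munc18-2), known from secretion by immune and epithelial cells, had levels of 2.14, 2.31, 2.20 and 2.18 in MS mice, against 2.24, 2.32, 2.96 and 2.59 in controls. Control 8.4 and control 8.5 were the highest, and the other 6 animals were close. Its log2 fold change of -0.32 (SE 0.15) was -0.18 without control 8.4 and -0.07 without MS 7.6, control 8.4 and control 8.5, and its other tested probe gave -0.04.

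Seen animal by animal, the median deviation of the 49 members from their 8-array mean was 0.03, 0.00 (-0.0034), 0.05 and -0.01 in MS 5.3, 7.1, 7.2 and 7.6, against -0.02, 0.02, -0.08 and 0.00 (0.0020) in control 6.2, 8.2, 8.4 and 8.5. In control 8.4, 20 of 49 members had their lowest value, as had 32.4% of all tested genes. The median SD of the members was 0.16, as of all genes (0.16). Without control 8.4 it was 0.13 for the members and 0.14 for all genes. The slide held 2 rows with 2 arrays of each group, and the log2 fold change had the same sign in both rows for 31 of 49 members. The share over all tested genes was not taken, so the count is not read as a trait of the members. Of the 17 members described by animal, 10 kept the sign between rows, while Syt1, Syt4, Syt9, Syt10, Syt14, Snap25 and Cplx2 did not.

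A further 93 genes that work with the SNAREs were read in 6 lists, all of them tested, and 0 passed the adjusted threshold. In all, 67 of 93 (72%) had a log2 fold change above 0, against 54.6% of all genes, with a median of 0.05 and of 0.02 without control 8.4. At an unadjusted p under 0.05 there were 2 (2.15%), near the 1.93% of all genes, and 1 (1.08%) had groups without overlap, near the 1.31% of all genes. Leaving out control 8.4 turned the sign of 20 partners and moved 59 others by more than 1.5 times, so each change below is followed by its value without that animal.

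In the active zone and priming list 16 of 25 were above 0. The scaffolds Pclo (0.20, 0.083 without control 8.4) and Rims1 (0.25, 0.053) were above, and the vesicle GTPase Rab3b (-0.21, -0.12) and Ppfia1 (-0.14, -0.041) below. All 4 genes of SNARE disassembly were above 0, with Napa (0.12, 0.048) and the ATPase Nsf, which pulls spent complexes apart (0.13, -0.018). Of 18 synaptic vesicle proteins 14 were above 0. The synapsin Syn3 (0.27, 0.18), the partner whose groups did not overlap, and Syngr1 (0.30, 0.17) were above, and Sv2c (-0.59, -0.24) and the vesicular glutamate transporter Slc17a6 (-0.27, -0.058) below. In the vesicle endocytosis list 11 of 17 were above 0, with the dynamin Dnm1 (0.12, 0.041) and Sh3gl2 (0.11, 0.017), and Dnm3 (-0.13, -0.20) and the clathrin adaptor subunit Ap2b1 (-0.10, -0.055) were below. Of 17 other intracellular SNAREs and their regulators 14 were above 0, with Ykt6 (0.19, 0.11) and Vti1b (0.18, 0.055), and Sec22c (-0.10, -0.20) and Gosr1 (-0.04, -0.012) were below. The other double C2 domain proteins had 8 of 12 above 0, with Sytl1 (0.53, 0.38), which like Syn3 was below an unadjusted p of 0.05, and Rph3a (0.26, 0.081), while Esyt3 (-0.27, -0.18) and Doc2b (-0.53, -0.22) were below.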

How the data were processed

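The authors labelled 200 ng total RNA of each mPFC with Cy3, hybridised 1-colour Agilent mouse arrays and used Agilent Feature Extraction 10.10.1.1 to obtain spot intensity values. That software had subtracted background from the deposited intensity, with no normalisation between arrays. Log2 values normalised by the authors are in a deposited series table, whose columns match the median signal of their own arrays at a correlation of 0.9999, with medians of 8.532 to 8.533, and it served as an alternative. Outlier flags of the software (0.255% to 0.304% of spots) were removed and spots of a probe averaged. For 302 bright probes spotted 10 times, the median SD was 0.066 between spots of an array and 0.13 between animals. Probes entered the test if each of the 4 arrays of 1 or both groups read them well above background, and the brightest tested probe stood for a gene. Groups were compared with limma 3.58.1 (lmFit and eBayes, no covariate, two-sided) in R 4.3.3, adjusted by Benjamini-Hochberg over all 34073 tested probes. Scripts were tested on simulated data. Described by animal were core release genes, the 6 members with the smallest unadjusted p and the 6 with the largest SD, and the other named genes are the 2 highest and 2 lowest of a role and up to 2 per direction of a partner list, and some genes that this rule picks are left out of the text. Members, lists and rule were chosen with earlier results of these data known. The alternatives were other background correction, scaling, filters, probe choices, blocks and moderation, and leaving out animals. Arrays share 1 slide and 1 scan.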

Additional observations from a re-analysis of the deposited data

Results flagged for a closer look

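In 6 of 98 groups of 4 animals (49 genes, 2 groups each), 1 animal lay far from the other 3 by Dixon's test, which chance alone flags in about 1 of 20 groups. Of these, 2 were Syt10, at 3.70 in MS 7.1 with the other MS mice from 4.44 to 4.58, and at 4.78 in control 6.2 with the other controls from 4.51 to 4.54. The Syt6 level was 3.72 in MS 7.6 with the other MS mice from 2.80 to 2.90. Vamp4, a SNARE of the Golgi and endosomes, was at 2.01 in MS 7.1, against 2.22 to 2.25 in the other MS mice. Syt5, a calcium-binding synaptotagmin, was at 5.78 in control 8.4 with the other controls from 6.06 to 6.10. Cplx4, the complexin known from retina, was at -5.04 in control 8.2 with the other controls from -4.78 to -4.73.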

How the results depend on the processing

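Under all alternatives run, 0 members, 0 partner genes and 0 probes passed the adjusted threshold. The member median stayed above 0, between 0.017 (without control 8.4) and 0.086 (without control 8.2). At an unadjusted p under 0.05 in limma there was 1 member in the main fit. There were 0 with quantile normalization or median scaling (2.01% of all genes under each). Leaving out MS 7.6, control 8.4 and control 8.5 together also gave 0 (1.65% of all genes). With the number before the point as a random block there were 8 (16.3%, against 10% of all genes). Each such number occurs in 1 group only, and the estimated correlation was -0.23. Since a negative value shrinks the standard error of the group difference, the 8 are not read as stronger evidence. Leaving out 1 animal gave from 0 to 3. It was 0 without MS 7.2 (1.3% of all genes) or control 8.5 (1.85%), and 3 without control 8.2 (6.12%, against 4.07%). Members without overlap were 0 in the main fit (1.31% of all genes) and 1 with normexp (2.04%, against 0.981% of all genes). In the authors' log2 table there was 1 (2.04%, against 1.46%). Without MS 7.6, control 8.4 and control 8.5 together there were 6 (12.2%, against 11.2%). Leaving out 1 animal gave from 0 to 7 members without overlap. It was 0 without MS 7.2 (2.34% of all genes) or control 8.5 (3.11%), and 7 without control 8.2 (14.3%, against 6.28%). Of the 17 members described by animal, 9 moved by more than 1.5 times in the authors' table.

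Some log2 fold changes turned their sign, those of Syt6 (-0.32) and Syt9 (-0.27) among them. For Cplx2 it was 0.0092 with normexp, 0.017 with median scaling, 0.11 as the mean of its probes, 0.037 with the random block, 0.00 (0.0026) without the 3 animals and 0.12 from its probe 4, and from -0.13 to 0.10 without 1 animal. With median scaling Snap25 was at 0.00 (0.0027) and Syt4 at 0.014. Without the 3 animals Vamp2 was at 0.00 (-0.0048), Syt6 at 0.044 and Syt9 at 0.061. Leaving out 1 animal, Syt1 ran from -0.022 to 0.15, Syt6 from -0.54 to 0.0600 (both turned by control 8.4), Snap25 from -0.045 to 0.036 (MS 7.1) and Syt4 from -0.18 to 0.11 (control 6.2, 8.2 and 8.5 and MS 7.1 and 7.6). The cause was not tested. The choices to leave out 3 animals and to read Cplx2 from probe 4 were made after seeing the data. No paired analysis was possible because the groups share no animal number.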
